A study of Homo sapiens with 3 samples.

Results

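CREBBP peaks and H3K27ac regions were described at the MHC class II genes, at CIITA and at CD74 in SC1 cells. SC1 is a human cell line labelled DLBCL, which stands for diffuse large B-cell lymphoma. Chromatin was immunoprecipitated and sequenced (ChIP-seq) for CREBBP, an acetyltransferase of histone lysines, and for H3K27ac, the acetylation of histone H3 at lysine 27 that marks active promoters and enhancers. The third library, an input made with no antibody, was not analysed here. Each of the 3 groups held 1 sample of SC1 cells, and the labels name no treatment, although the deposited peak names contain DMSO and rep2. The members were all intervals of the 2 lists that overlapped chromosome 6 from 32400000 to 33060000, chromosome 16 from 10951000 to 11039000, or chromosome 5 from 149761000 to 149812000, all on build hg19. These windows hold the class II cluster, CIITA and CD74. They were set by position and not by any measured value, but with earlier results of these data known. They held 76 of 215598 CREBBP peaks and 32 of 18263 H3K27ac regions.

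MHC class II molecules are cell-surface pairs of an alpha and a beta chain that show peptides from taken-up proteins to CD4+ T cells, and B cells carry them throughout most of their life. HLA-DRA, HLA-DRB1, HLA-DQA1, HLA-DQB1, HLA-DPA1 and HLA-DPB1 encode such chains. HLA-DMA and HLA-DMB encode the HLA-DM protein that exchanges peptides on them, and CD74 encodes the invariant chain that guides and shields them in the cell. CIITA is the coactivator that switches these genes on. It does not bind DNA itself but joins factors that sit on the X and Y boxes of their promoters, and it is known to bring in acetyltransferases, CREBBP among them. In the RefSeq gene order of GRCh38.p14, 18 protein-coding genes run from HLA-DRA to HLA-DPB1. Of these, 8 are members. In order they are HLA-DRA, HLA-DRB1, HLA-DQA1, HLA-DQB1, HLA-DMB, HLA-DMA, HLA-DPA1 and HLA-DPB1.

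RefSeq promoters of 4 members held an X box match, and these are shown because the X and Y boxes are the known landing sites of the factors that CIITA joins. The table holds a promoter of 250 bases before to 50 bases after the gene start for 8 of the 10 members, HLA-DRA and CIITA not among them. The X box was searched on both strands by its consensus of 14 letters and the Y box as CTGATTGG, whose core is ATTGG. Every Y box match therefore also holds a core match. Capitals mark the X box, with at most 1 mismatch, and the nearest Y box core after it on either strand, where CCAAT is the core on the other strand. Positions are on GRCh38.p14, minus strand, and cannot be set beside the hg19 positions of the peaks.
HLA-DRB1, chr6:32589865-32589955: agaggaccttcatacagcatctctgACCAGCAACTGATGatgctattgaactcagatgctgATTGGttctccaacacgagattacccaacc
HLA-DQB1, chr6:32666716-32666806: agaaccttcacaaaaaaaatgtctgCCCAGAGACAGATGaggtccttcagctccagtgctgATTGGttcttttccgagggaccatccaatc
HLA-DMB, chr6:32941021-32941144: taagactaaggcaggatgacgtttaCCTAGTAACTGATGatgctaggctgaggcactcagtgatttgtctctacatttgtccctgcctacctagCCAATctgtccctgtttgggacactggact
HLA-DMA, chr6:32953147-32953238: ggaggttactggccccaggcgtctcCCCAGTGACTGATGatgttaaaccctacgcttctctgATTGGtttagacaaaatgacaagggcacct

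The X box with no mismatch was in 3 of the 8 members with a promoter, HLA-DMA, HLA-DMB and HLA-DQB1, and in 0.0626% of the 35116 promoters in the table. With 1 mismatch allowed, a setting chosen after the sequences were seen, HLA-DRB1 joined them, and 1.67% of all promoters held a match. The Y box was in 3 members, HLA-DMA, HLA-DQB1 and HLA-DRB1, against 3.97% of all promoters. Its core was in 7 of the 8, CD74 included, and in 34.6% of all promoters. From the end of the X box to the Y box core there were 22 bases in HLA-DRB1, 22 in HLA-DQB1 and 23 in HLA-DMA. In HLA-DMB the nearest core lay 55 bases on. The letters TGACG, the core of the cyclic AMP response element, was in 4 of the 8 and in 24.6% of all promoters. A member was counted when any of its promoters held a match, and the 8 members had 9 promoters, while the shares of all promoters count each promoter. The X and Y boxes are known from promoters of these genes, so a higher share among members follows from the choice of motif. A promoter without a match may still hold a box of other letters. A match describes the reference letters and is no measurement of binding in SC1.

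The class II window held many separate H3K27ac regions, and both lists were denser there than over the chromosomes as a whole. It had 26 H3K27ac regions, or 39.4 per Mb, against 6.02 per Mb over the whole list. They covered 55.4 kb, 8.39% of the window, against 1.12% of the extent of the chromosomes. It had 69 CREBBP peaks, or 104.5 per Mb, against 71.03 per Mb over the whole list. Most peaks in both were weak. The −log10 of the authors' adjusted p was 0 for 44 of the 69, 63.8%, and for 80.7% of the whole list. Fold enrichment, the authors' ratio of ChIP signal to background, had a median of 8.20 over the 26 H3K27ac regions and of 4.92 over the whole list. Of the 26 regions, 19 were above the median fold of the list and 16 above its median width.

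**Figure D1:**
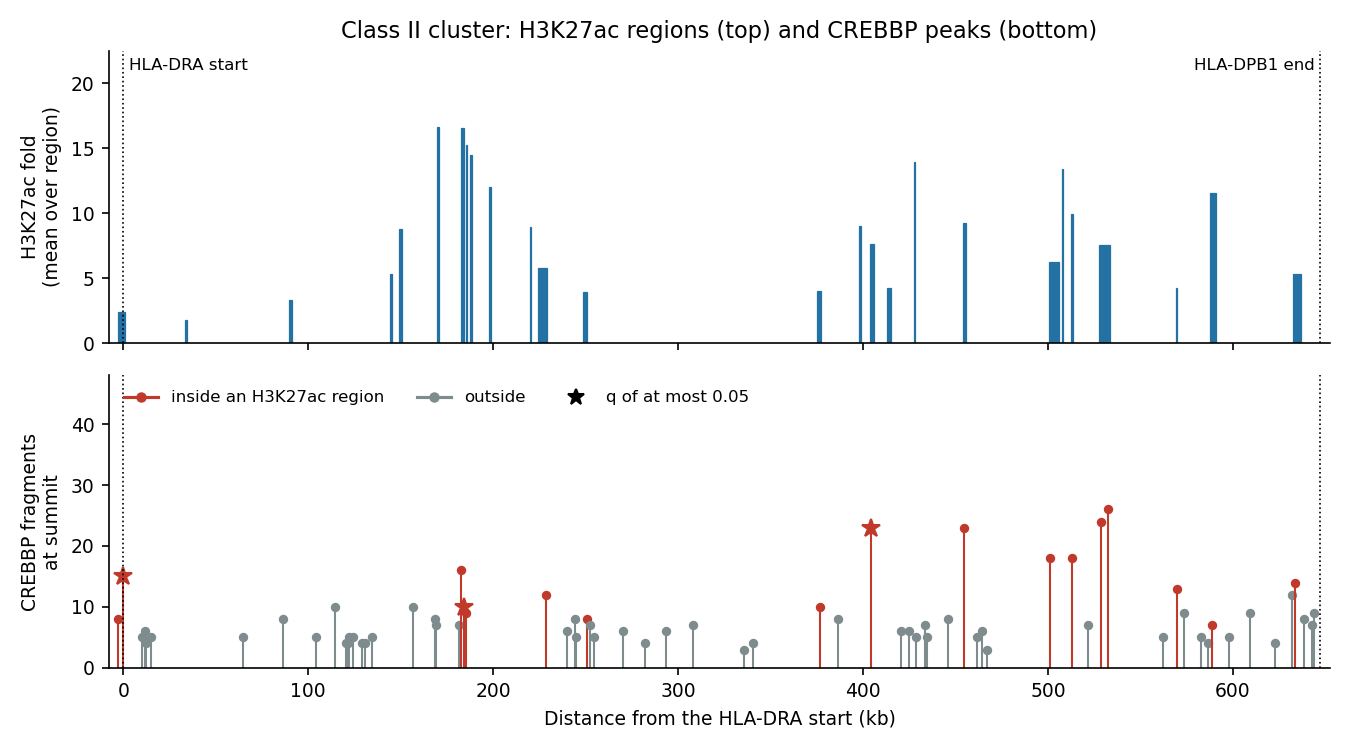
H3K27ac regions (top, bar height is the authors' fold enrichment averaged over the region, bar width is the region) and CREBBP peaks (bottom, fragments at the summit) across the class II window, in kb from the HLA-DRA start. The 4 largest H3K27ac folds stand within 18.7 kb of each other, and the gap of 124 kb without an H3K27ac region is to their right.

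HLA-DRA, the nearly invariant alpha chain of the DR molecule, had the CREBBP peak of largest fold in the window at its start. Fragment numbers and backgrounds were solved from the deposited fold and p of each peak, so they are inferences for its summit, and q is the authors' p adjusted for many tests. The start is given as position 32407619. The CREBBP peak ran from 32407303 to 32407813 on chromosome 6 and its summit lay 15 bp before the start. Its fold was 4.43, higher than in 99.8% of all CREBBP peaks, with 15 fragments over a background of 2.61 and a −log10 q of 3.54. The H3K27ac region around it ran from 32404715 to 32408607, from 2.90 kb before the start to 0.988 kb after it. That region was wide, at 3893 bp above 91.9% of the list, but its fold of 2.36 was above only 12.1% of the list. A second CREBBP peak in the same region had a fold of 1.84 and 8 fragments over a background of 3.90.

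The H3K27ac regions of largest fold stood together, 169.7 to 188.5 kb beyond the HLA-DRA start. Within a stretch of 18.7 kb lay 4 regions, which had the 4 largest folds of the window. The region from 32577351 to 32578218 had a fold of 16.6, above 96.3% of the list, and held no CREBBP peak. The region from 32590156 to 32591790 also had a fold of 16.6 and held 2 CREBBP peaks. The region from 32592945 to 32593423, the narrowest of the window at 479 bp, had a fold of 15.2 and held 1 CREBBP peak. The region from 32595350 to 32596090 had a fold of 14.5 and held none. One of these CREBBP peaks, from 32591489 to 32591837, had a q of at most 0.05, with a fold of 3.73, 10 fragments over a background of 1.95 and a −log10 q of 1.41. The fifth largest H3K27ac fold, 13.9, was 427 kb beyond the HLA-DRA start, from 32835073 to 32835747, with no CREBBP peak inside.

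The widest regions of the class II window were not those of largest fold. The widest spanned 6345 bp from 32934999 to 32941343, with a fold of 7.55 and 2 CREBBP peaks inside. The region from 32907964 to 32913690 spanned 5727 bp with a fold of 6.22, and the region from 32632085 to 32636797 spanned 4713 bp with a fold of 5.80. The region from 33039901 to 33044585 spanned 4685 bp with a fold of 5.34. Together with the region at HLA-DRA, these were the 5 regions over 3 kb, and each held at least 1 CREBBP peak. The 5 widest had folds of 2.36 to 7.55, while the 5 of largest fold had widths of 479 to 1635 bp. Across the 26 regions width and fold had a Spearman rho of -0.47, against 0.090 over all 18263 regions. The regions share 1 library, and each fold is a mean over its region.

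The remaining regions that the rule names ranked 6 to 10 by width in the window, and were wider than 71.6% to 85.4% of the list. The region from 32995391 to 32998276 was 2886 bp wide with a fold of 11.6 and 1 CREBBP peak. The region from 32811184 to 32813812 was 2629 bp wide with a fold of 7.61. It held the third CREBBP peak of the window with a q of at most 0.05, from 32811636 to 32812256, which had 23 fragments over a background of 6.64, a fold of 3.14 and a −log10 q of 2.75. The regions from 32656219 to 32658229, from 32782597 to 32784873 and from 32820499 to 32822833 were 2011 to 2335 bp wide, with folds of 3.97, 3.98 and 4.27. The other 11 regions had folds of 1.77 to 13.4.

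The mark was not spread evenly over the cluster. In 4 stretches of 165 kb taken in turn from the HLA-DRA side, H3K27ac covered 5.59%, 7.78%, 6.52% and 13.7%. The median fold of the 5, 8, 6 and 7 regions, taken in that turn, was 3.34, 13.2, 8.32 and 7.55, so the stretch beside HLA-DRA was lowest on both counts. How reads were placed at HLA-DR and HLA-DQ genes is not known here, and its part in these values was not tested. The longest stretch between neighbouring regions was 124 kb, from 32658230 to 32782596. Wholly within it lay 8 CREBBP peaks with a median of 5.5 fragments. None had a q of at most 0.05, which 1.81% of all CREBBP peaks have, so this absence does not set the stretch apart. The HLA-DPB1 end, at position 33054978, was 10.4 kb from the nearest H3K27ac region. The hg19 position of the HLA-DPB1 start was not at hand, so this distance does not describe the promoter of the gene. The CREBBP peak nearest to the HLA-DPB1 end was 3.31 kb away, from 33051063 to 33051669. Its fold was 3.51, the third largest in the window, with 9 fragments over a background of 1.85 and a −log10 q of 1.01. Joining H3K27ac regions that lie within 12.5 kb gave 15 domains, the largest with 7.89 kb covered from 32907964 to 32921371. None of the 15 was among the 662 wide domains, the top 5% of all domains by covered length, which cover at least 8.03 kb each.

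CREBBP peaks of the class II window that lay in H3K27ac regions had more fragments than those outside, as over the whole list. Inside lay 17 of 69 peaks, 24.6% (exact 95% interval 15.1 to 36.5%), against 5.06% of all CREBBP peaks. H3K27ac covered 8.39% of the window, against 1.12% of the chromosomes, and the part of this in the share was not tested. Inside, peaks had 7 to 26 fragments with a median of 14, over a median background of 4.58. Outside, the 52 peaks had 3 to 12 fragments with a median of 5.5, over a median background of 1.70. By fold, which divides by the background, the medians were 2.29 inside and 2.40 outside. Over the whole list the median peak had 16 fragments inside and 5 outside, over backgrounds of 6.87 and 1.30, with folds of 2.15 and 2.17. The most fragments, 26 and 24, were at the peaks in the widest H3K27ac region, with folds of 2.23 and 1.58 over backgrounds of 11.1 and 14.8.

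**Figure D2:**
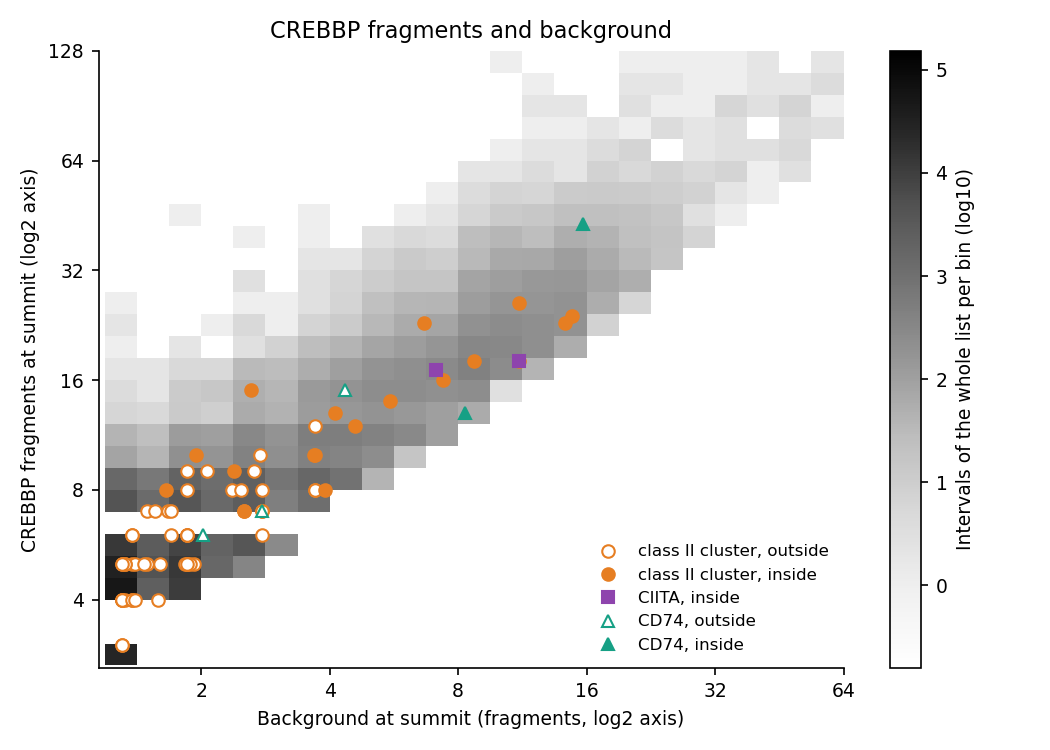
Fragments against background at the summit of CREBBP peaks on log2 axes, with the whole list as grey bins (log10 number of peaks) and members as points, filled when inside an H3K27ac region. Filled class II points reach 26 fragments and open ones 12, and the CD74 peak of 43 fragments is the highest member.

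Over the class II window as a whole, 43 of 69 CREBBP peaks had more than 5 fragments, the median of the list, where 32.5% of all peaks do. The commonest background of 1.30 fragments was found at 8 of the 69, where 54.5% of all peaks have it. Of the 69 peaks, 3 had a q of at most 0.05, 4.35% (0.906 to 12.2%), against 1.81% of the list. All 3 lay inside H3K27ac regions, as do 56.5% of all peaks of that strength. A CREBBP peak was present in 14 of the 26 H3K27ac regions, 53.8% (33.4 to 73.4%), against 49.0% of all regions, and 3 held one with a q of at most 0.05, 11.5% (2.45 to 30.2%), against 11.4%. By these shares the H3K27ac regions of the cluster were close to the list as a whole. The 14 regions with a CREBBP peak had a median width of 2453 bp and a median fold of 6.88. The 12 without had a median width of 968 bp and a median fold of 8.99. Over the whole list the widths were 1774 bp with a peak and 1160 bp without, and the folds 5.09 and 4.75.

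The CIITA window held the strongest H3K27ac of the 3 loci by fold. Neither of its 2 CREBBP peaks had a q of at most 0.05, which 1.81% of all CREBBP peaks have. None of its 5 H3K27ac regions held such a peak, against 11.4% of all regions. With so few intervals, these absences do not set the CIITA window apart from the list. Its 5 H3K27ac regions covered 11.7 kb, 13.3% of the window. The region from 10980975 to 10986384 on chromosome 16 was 5410 bp wide with a fold of 21.2, above 98.6% of the list by fold and 96.0% by width. No other of the 18263 regions was both as wide and as high, a property that 18 regions of the list have. The region from 10970369 to 10973716 was 3348 bp wide with a fold of 18.0, above 97.3% of the list by fold. Only 25 regions, itself included, were at least as wide and as high.

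The other CIITA regions were narrower. The region from 10962314 to 10963204 had a fold of 6.30 and that from 11035303 to 11036695 a fold of 8.98. The region from 11038372 to 11039006, which crosses the edge of the window, had a fold of 1.97. A stretch of 48.9 kb between the strong pair and the last regions held neither an H3K27ac region nor a CREBBP peak. The first 3 regions joined into a domain of 24.1 kb with 9.65 kb covered, ranked 463 of 13232 by covered length and so among the 662 wide domains.

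**Figure D3:**
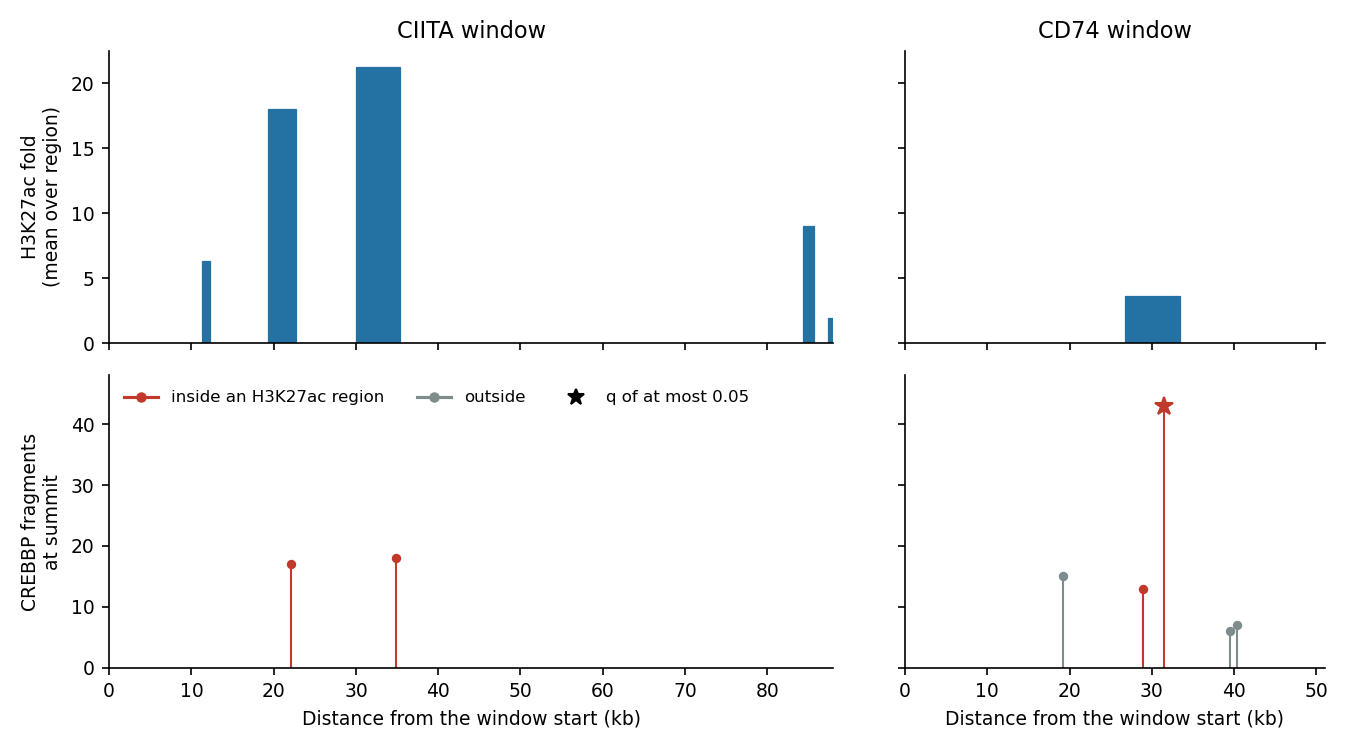
H3K27ac regions (top, fold averaged over the region) and CREBBP peaks (bottom, fragments at the summit) in the CIITA window (left) and the CD74 window (right), in kb from the window start. CIITA has folds up to 21.2 and CREBBP peaks of 17 and 18 fragments, and CD74 has 1 region of fold 3.62 with a CREBBP peak of 43 fragments.

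Both CREBBP peaks of the CIITA window lay in its strong H3K27ac regions. That share of 100% rests on 2 peaks (exact 95% interval 15.8 to 100%), against 5.06% of all CREBBP peaks. The peak from 10972962 to 10973209 had 17 fragments over a background of 7.10, a fold of 2.22 and a −log10 q of 0.21. The peak from 10985590 to 10986022 had 18 fragments over a background of 11.1, a fold of 1.57 and a −log10 q of 0. Their fragment numbers were above 97.1% and 97.4% of the list, and their backgrounds above 97.2% and 98.7%. Their folds were above 57.9% and 0.437% of the list. The window had 22.7 CREBBP peaks per Mb, against 71.03 over the whole list. A CREBBP peak was present in 2 of 5 regions, 40.0% (exact 95% interval 5.27 to 85.3%), near the 49.0% of all regions.

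CD74 differed from CIITA in both lists. Its window held 1 H3K27ac region, from 149787786 to 149794368 on chromosome 5. The region was 6583 bp wide, above 97.6% of the list, while its fold of 3.62 was above only 32.9%. It covered 12.9% of the window, close to the share at CIITA, and as a domain it was below the width of the wide domains. Of 5 CREBBP peaks, 2 lay inside it. The peak from 149792309 to 149792809 had 43 fragments over a background of 15.7, a fold of 2.63 and a −log10 q of 4.19. Its q was the smallest and its fragment number the highest among all 76 CREBBP peaks of the 3 windows, and 99.8% of the list had fewer fragments. Its background was above 99.6% of the list and its fold above 83.3%.

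The remaining CD74 peaks had fewer fragments. The peak from 149789933 to 149790356, also inside, had 13 fragments over a background of 8.31 and a fold of 1.50. Outside, the peak from 149780065 to 149780614 had the largest fold of the window, 2.99, with 15 fragments over a background of 4.35 and a −log10 q of 1.20. The peaks from 149800157 to 149800605 and from 149801206 to 149801653 had 6 and 7 fragments.

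**Figure D4:**
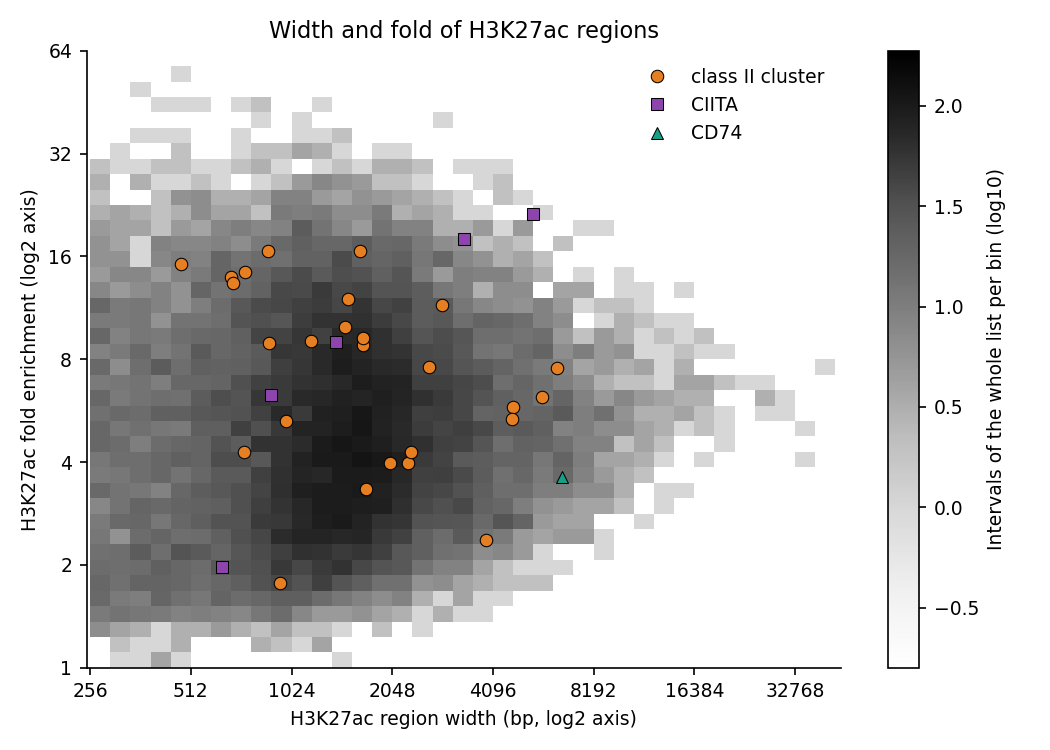
Width (bp) against fold enrichment of H3K27ac regions on log2 axes, with the whole list as grey bins (log10 number of regions) and members as points. The CIITA pair at folds of 18.0 and 21.2 lies at the upper edge of the list, the CD74 region of 6583 bp and fold 3.62 lies low and to the right, and the class II regions range from 1.77 to 16.6 in fold.

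Across the loci the order of the largest H3K27ac fold was not that of the largest CREBBP values. The largest H3K27ac folds were 21.2 over the 5 regions at CIITA, 16.6 over the 26 of the class II window and 3.62 at the 1 region of CD74. These are maxima over unequal numbers of intervals, and the part of those numbers in the order was not tested. The largest −log10 q of CREBBP was 0.21 over the 2 peaks at CIITA, 3.54 over the 69 of the class II window and 4.19 over the 5 at CD74. The largest CREBBP fold was 2.22 at CIITA, 4.43 in the class II window and 2.99 at CD74, so the order of the class II window and CD74 depends on the measure. The H3K27ac region at the HLA-DRA start, like that of CD74, was wide and low in fold and held a CREBBP peak with a q of at most 0.05. The other regions holding such a peak were higher in fold. They ran from 32590156 to 32591790 and from 32811184 to 32813812. Their folds of 16.6 and 7.61 were above 96.3% and 72.9% of the list. There was no replicate, so none of these differences between loci has an error. HLA-DR and HLA-DQ genes have near-identical neighbours and differ between people, and how reads of such stretches were placed is not given in the sources used here, so values there are uncertain.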

How the data were processed

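CREBBP and H3K27ac were each mapped by ChIP-seq in 1 library of SC1 cells, and the input library of the series was not analysed here. The tools named in the submitters' processing notes were MACS2, Bowtie2, STAR and fastp, with build hg19. Settings, the control library and pooling of samples were not stated in the sources used here. The authors deposited narrow CREBBP peaks and broad H3K27ac regions, with a fold enrichment for each interval (the ratio of ChIP to background signal), −log10 p, −log10 q and a score. CREBBP values are taken to be those at the summit and H3K27ac values means over the region, as the formats define them. All are values of the authors, used here to describe and rank intervals of 1 list.

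Intervals on the autosomes and X were kept, 215598 CREBBP peaks and 18263 H3K27ac regions. Positions are on hg19, counted from 1. An interval belonged to a window when they shared at least 1 bp, and a CREBBP peak was inside an H3K27ac region on the same terms. Regions within 12.5 kb of each other were joined into domains, and the top 5% by covered length were called wide. Fragment numbers were solved from fold and p, taking fold as fragments plus 1 over background plus 1 and p as the upper Poisson tail. A single whole number fitted within 0.001 of −log10 p for 99.9% of the list and for all 76 CREBBP peaks in the windows. These numbers are inferences and stand for the depth, which the lists do not state. Exact Clopper-Pearson 95% intervals on shares take peaks as independent and cover only counting error.

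With 1 library for each antibody there was no replicate error and no test. The windows, gene lists and rules were chosen with earlier results of these data known. The text names every H3K27ac region of the CIITA and CD74 windows, and in the class II window the 10 widest and the 5 of largest fold. It names CREBBP peaks with q of at most 0.05 or among the 3 largest folds of a window. Any other interval was chosen after its values were seen. Gene positions inside the windows were at hand only for GRCh38.p14, so an interval was tied to a gene only at the hg19 positions given for HLA-DRA and HLA-DPB1. B-cell, T-cell and myeloid marker genes and the other genes of the pathway were not placed on the lists for the same reason. The work was done in Python 3.11.15 with scipy 1.17.1, pandas 2.3.3, numpy 2.4.6 and matplotlib 3.10.9, and the overlap and fragment code was tested on simulated data.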

Additional observations from a re-analysis of the deposited data

How the results depend on the processing

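With 1 library for each antibody, no value carries an error between cultures, and the few CREBBP fragments at each summit limit what the CREBBP list can show. H3K27ac coverage moved from its values of 8.39% (class II window), 13.3% (CIITA) and 12.9% (CD74). When H3K27ac regions were limited to the upper 50% by q, coverage was 6.13% (class II), 12.5% (CIITA) and 0% (CD74). With each window widened by 50 kb on both sides it was 7.28% (class II), 6.21% (CIITA) and 6.75% (CD74). With only CREBBP peaks of q at most 0.05, which are 1.81% of the list, the peaks numbered 3 in the class II window, 0 at CIITA and 1 at CD74. With only the upper 50% of CREBBP peaks by p, the class II window kept 50 of 69 peaks, CIITA 1 of 2 and CD74 4 of 5. When peaks were limited to q of at most 0.05, 100% of them lay inside H3K27ac regions in the class II and CD74 windows. These shares rest on 3 peaks and 1 peak, and 56.5% of all peaks of that q lie inside. No such share could be formed at CIITA. Regions holding a peak of that q made up 11.5% in the class II window and 0% at CIITA, against 11.4% of all regions. Asking for 50% of the peak, or for its summit, inside a region changed no share of peaks, and asking for the summit changed no share of regions. Using fewer intervals could only lower or keep a count or a coverage, while a share could move either way. The widened windows held 26 H3K27ac regions (class II), 5 (CIITA) and 4 (CD74), against 26, 5 and 1 in the original windows. The change of coverage on widening thus depended on what the added flanks held. No paired analysis was possible because there was 1 sample in each group.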

Other observations

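The other genes of the class II pathway were looked at only through their RefSeq promoters of GRCh38.p14. Of 21 such genes listed, 18 had a promoter in the table, with 29 promoters between them. A gene was counted when any of its promoters held a match, while the shares of all promoters count each promoter. Genes with several promoters thus had more chances of a match. The X box within 1 mismatch, a setting chosen after the sequences were seen, was present in 4 of these 18 genes, against 1.67% of all promoters. All 4 were class II chain genes: HLA-DRB5, a further DR beta chain, HLA-DQB2, a further DQ beta chain, and HLA-DOA and HLA-DOB, the chains of the HLA-DO protein that restrains HLA-DM. With no mismatch the X box was in none of the 18 and in 0.0626% of all promoters. The Y box was in 5 of the 18, namely HLA-DQA2, HLA-DQB2, HLA-DRB5, NFYA and RFX5, against 3.97% of all promoters. NFYA is a subunit of the factor that binds the Y box, and RFX5 is a subunit of the factor that binds the X box. Since the boxes are known from class II promoters, a higher share among class II chain genes follows from the choice of motif. These matches describe reference letters only and are not tied to a peak of either list.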
